A study of Mus musculus with 16 samples.

Results

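The circadian clock genes described here were *Arntl*, *Clock*, *Per1*, *Per2*, *Per3*, *Cry1*, *Cry2*, *Nr1d1*, *Nr1d2* and *Dbp*. They were taken by symbol from an expression table of 49585 mouse genes, which listed all 10. The table holds 16 libraries from cochlear hair cells of CBA mice (CBA/J in the study's methods) of both sexes, with no treatment, transgene or engineered mutation stated, in 4 labelled groups of 4 libraries: outer hair cells (OHCs) at 26 months (26m OHC), OHCs at 9 months (9m OHC), inner hair cells (IHCs) at 26 months (26m IHC) and IHCs at 9 months (9m IHC). IHCs are the sensory cells that pass sound to the auditory nerve, and OHCs amplify the vibration by changing their length. Each sample pooled about 1000 cells, picked one by one on their shape from the cochleae of 6 to 18 mice per the series' design text, and the study's methods give a single number within that range for each age. Neither the labels nor the study's methods gave the light schedule or the time of day of dissection. The hour of collection and the labelled group therefore cannot be told apart. The study's methods describe both cell types as collected from each mouse, but no source says which samples shared mice or an hour.

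In the mouse clock, CLOCK and BMAL1 (the product of *Arntl*) bind E-box sequences together and switch on the *Per*, *Cry*, *Nr1d1*, *Nr1d2* and *Dbp* genes, and the PER and CRY proteins then silence CLOCK and BMAL1. In a second loop, the nuclear receptors REV-ERBα and REV-ERBβ (*Nr1d1* and *Nr1d2*) repress *Arntl*, and DBP activates genes through D-box sequences. Most of these transcripts rise and fall over the day in mouse tissues, the cochlea among them, with *Arntl* and *Dbp* or *Nr1d1* peaking at opposite times, whereas *Clock* itself usually cycles little.

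Promoters of the clock genes were searched for the sequences through which these loops act. RefSeq windows of the GRCm38.p6 build, from 250 bases before to 50 bases after a start, were at hand for 9 of the 10 genes, with 13 windows in all, and *Per2* had no window. Searched on both strands, the E-box CACGTG was found in 2 of the 9 genes, against 8.09% of 27025 genes with a window. Its variant CACGTT was found in 3, against 5.44% of genes, and the D-box TTATGTAA in 1, against 1.11%. The sequence AGGTCA, the core of the element that REV-ERB and ROR receptors bind, was found in 4, against 18.1%, and the cyclic AMP response element TGACGTCA in none, against 2.03%. No matches overlapped each other. The windows of *Per1*, *Per3*, *Cry1*, *Nr1d1* and *Nr1d2* are shown, up to the base before the start, because they hold the matches of 5 genes whose levels are compared below. Capitals mark the matches, some of them on the opposite strand.
*Per1* (chr11:69098699-69098948, plus strand): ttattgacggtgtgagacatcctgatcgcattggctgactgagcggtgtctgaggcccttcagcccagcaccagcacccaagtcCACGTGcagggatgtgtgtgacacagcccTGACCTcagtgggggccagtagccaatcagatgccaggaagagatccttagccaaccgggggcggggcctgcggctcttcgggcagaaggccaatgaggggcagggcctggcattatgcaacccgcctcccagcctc
*Per3* (chr4:151044666-151044915, minus strand): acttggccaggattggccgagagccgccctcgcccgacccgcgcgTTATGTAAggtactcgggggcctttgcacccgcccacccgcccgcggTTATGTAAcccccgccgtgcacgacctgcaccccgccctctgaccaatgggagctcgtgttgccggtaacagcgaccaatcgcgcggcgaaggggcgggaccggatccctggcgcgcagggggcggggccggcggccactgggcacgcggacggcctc
*Cry1* (chr10:85185055-85185304, minus strand): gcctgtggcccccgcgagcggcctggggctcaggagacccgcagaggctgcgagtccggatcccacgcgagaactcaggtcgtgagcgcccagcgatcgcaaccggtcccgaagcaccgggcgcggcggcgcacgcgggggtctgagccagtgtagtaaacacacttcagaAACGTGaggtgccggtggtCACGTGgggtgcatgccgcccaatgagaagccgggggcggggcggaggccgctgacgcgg
*Nr1d1* (chr11:98775378-98775627, minus strand): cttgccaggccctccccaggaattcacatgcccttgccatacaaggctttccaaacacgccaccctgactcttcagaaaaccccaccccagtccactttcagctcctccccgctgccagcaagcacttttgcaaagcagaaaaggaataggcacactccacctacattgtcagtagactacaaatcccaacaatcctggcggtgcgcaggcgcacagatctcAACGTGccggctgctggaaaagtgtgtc
*Nr1d2* (chr14:18239107-18239356, minus strand): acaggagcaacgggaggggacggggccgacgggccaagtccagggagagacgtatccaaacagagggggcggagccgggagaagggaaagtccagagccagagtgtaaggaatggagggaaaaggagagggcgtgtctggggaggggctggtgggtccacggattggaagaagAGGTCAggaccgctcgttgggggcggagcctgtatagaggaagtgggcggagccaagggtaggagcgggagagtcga
Counted from -1 at the base before the start, *Per1* carried an E-box at position -166 and an AGGTCA core at -137, and *Cry1* a CACGTT at -79 and an E-box at -60. *Per3* carried D-boxes at -205 and -158, *Nr1d1* a CACGTT at -28 and *Nr1d2* an AGGTCA core at -77. The other matches were a CACGTT at -166 in *Cry2*, and AGGTCA cores at 32 in the second window of *Arntl* and at -119 in the third window of *Clock*. The window of *Dbp* held none of these letters.

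Levels were compared as RPKM, the reads per gene divided by its transcript length and by the number of mapped reads. Library 1 differed from library 2, and library 3 from library 4, by little more than sampling noise in every group. The mean chi-square per gene was 1 to 1.10 in these 8 comparisons and 1.73 to 2.39 in the 16 others. Each of these couples was therefore averaged and counted as 1 sample, so that n = 2 per group, and p-values measured only the spread between the averages, which may be technical. A gene was called where limma's adjusted p did not exceed 0.1 and the fold change was at least 1 in either direction on the log2(RPKM + 0.1) scale, which understates the change of low genes. Library depth was 19666192 to 31243723 reads, as recovered from the RPKM values, and mitochondrially encoded genes took 7.48 to 7.73% of reads in 26m OHC, 9.27 to 9.56% in 9m OHC, 1.94 to 2.05% in 26m IHC and 1.16 to 1.22% in 9m IHC.

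The labels went against the marker genes of the cells. All 7 OHC markers, such as *Slc26a5* (prestin, the OHC motor protein) and *Ocm* (oncomodulin), were highest in the libraries labelled 26m IHC. *Slc26a5* averaged 1.85 RPKM in 26m OHC, 0.172 RPKM in 9m OHC, 816 RPKM in 26m IHC and 1.07 RPKM in 9m IHC. The summed level of the 7 was 1193 to 1206 RPKM in 26m OHC, 102 to 105 RPKM in 9m OHC, 14772 to 14994 RPKM in 26m IHC and 49.7 to 52.5 RPKM in 9m IHC. The 6 IHC markers, led by *Otof*, summed to 131 to 135, 255 to 258, 26.1 to 27.1 and 574 to 594 RPKM in the same order, with *Fgf8* at 0 in all groups but 9m IHC and *Ntf3* at 0 in 26m IHC. Group names below are therefore those of the labels alone, and a direction by age or by cell type holds for the libraries so labelled. If the labels 26m IHC and 9m OHC were exchanged, the comparisons of 9m OHC with 9m IHC and of 26m OHC with 26m IHC would be those between the ages. With that exchange the summed OHC markers would be higher in both OHC groups than in both IHC groups. The summed IHC markers would be higher in both IHC groups. Neither holds under the labels as given. In the libraries labelled 26m OHC, *Ocm* made up most of the OHC sum, at 1151 RPKM. *Strip2* (5.60 RPKM in 26m OHC, 11.6 RPKM in 9m IHC) and *Ntf3* (1.85 RPKM in 26m OHC, 0.77 RPKM in 9m OHC) would go against these orders. The other markers would keep them, apart from *Fgf8*, at 0 in all groups but 9m IHC. The exchange would change the age and cell type of the libraries labelled 26m IHC and 9m OHC. What each comparison of groups below stands for would change with it. The interaction of age and cell type below would keep its meaning, as both of these groups enter it with the same sign.

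Genes of other cells also differed between the groups. The 10 macrophage markers summed to 1011 to 1044 RPKM in 26m OHC, 0.158 to 0.424 RPKM in 9m OHC, where *Ctss*, *Tyrobp*, *Cd68*, *Fcer1g*, *C1qa*, *C1qb* and *Csf1r* were at 0, 51.1 to 54.2 RPKM in 26m IHC and 2.72 to 3.15 RPKM in 9m IHC. The 5 red cell genes summed to 17.4 to 19.9, 12.0 to 14.3, 5920 to 6149 and 401 to 407 RPKM, and the 7 neuronal genes to 713 to 728, 108 to 111, 35.4 to 36.1 and 198 to 203 RPKM, in the same order. The 6 granulocyte genes were at most 4.41 RPKM in sum outside 26m IHC, where they reached 389 to 403 RPKM. The 8 supporting cell genes summed to 435 to 438, 307 to 319, 362 to 369 and 1300 to 1306 RPKM, highest in 9m IHC, and the 7 genes of fibrocytes and stria to 536 to 542, 75.3 to 77.1, 126 to 129 and 70.0 to 72.9 RPKM, highest in 26m OHC. The 6 markers of both hair cell kinds were closer together in sum, at 518 to 540, 692 to 718, 629 to 643 and 694 to 706 RPKM. *Pvalb* made up most of the sum in 26m OHC (394 RPKM) and 9m OHC (506 RPKM). *Myo7a* averaged 9.87, 8.52, 39.0 and 40.7 RPKM and *Espn* 4.14, 6.34, 52.7 and 32.4 RPKM, in the same order. In 26m OHC against 26m IHC, 1 of the 6 was called higher and 5 lower (29% and 34.4% of all genes). The part of these other cells in the clock gene levels was not tested. In pooled cells, fewer cells of a type and less RNA per cell cannot be told apart.

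All 10 clock genes were detected in every library and passed the filter on low values (a mean of 0.1 RPKM in at least 1 group compared) in every comparison. Their mean levels summed to 70.3 RPKM in 26m OHC, 80.0 RPKM in 9m OHC, 129 RPKM in 26m IHC and 250 RPKM in 9m IHC. *Nr1d1* and *Nr1d2* were the most abundant in 26m OHC and 26m IHC, *Nr1d1* and *Dbp* in 9m OHC, and *Nr1d1* and *Cry2* in 9m IHC. At the low end stood *Per1*, lowest of the 10 in every group but 26m IHC, where *Per2* was lower. The ratio of the highest to the lowest group mean ran from 1.53 for *Per3* and 2.01 for *Clock* to 8.26 for *Cry1* and 9.64 for *Nr1d2*.

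**Figure D1:**
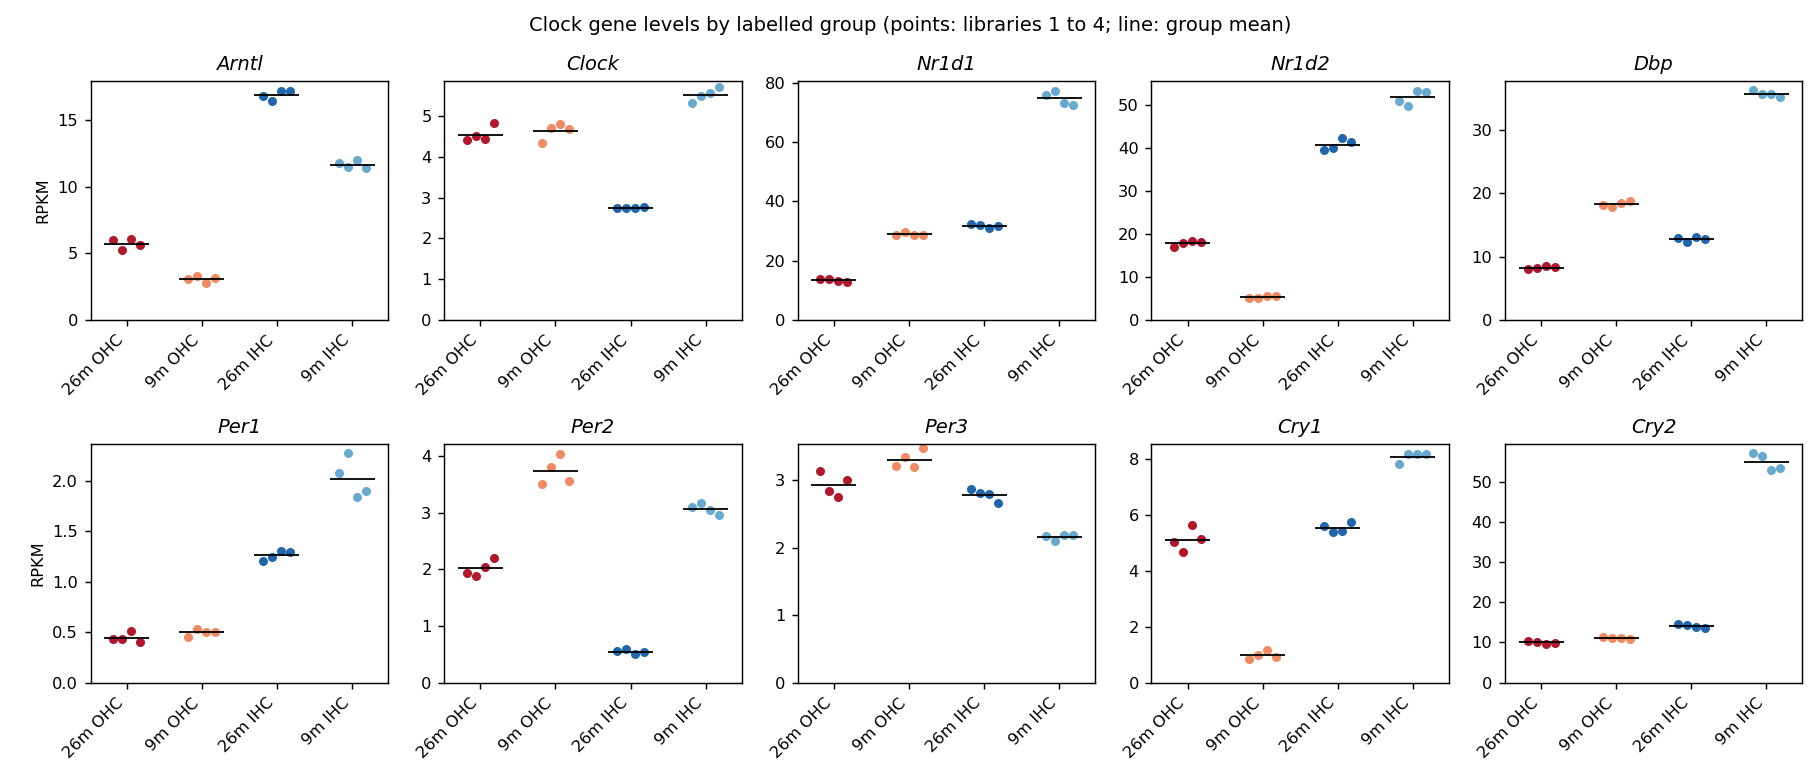
Level of each of the 10 clock genes in RPKM (linear axes from 0) in the 4 libraries of each labelled group, with a line at the group mean. The 9m IHC libraries were the highest for 7 of the 10 genes, the exceptions being *Arntl*, highest in 26m IHC, and *Per2* and *Per3*, highest in 9m OHC.

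The activators were *Arntl*, which encodes the CLOCK partner BMAL1 (chr7:113207465-113314126, plus strand, GRCm38), and *Clock* (chr5:76209868-76304792, minus strand). In *Arntl*, the 4 libraries gave 5.98, 5.26, 6.05 and 5.60 RPKM for 26m OHC, against 3.04, 3.30, 2.77 and 3.17 RPKM for 9m OHC. They gave 16.8, 16.4, 17.2 and 17.2 RPKM for 26m IHC, against 11.8, 11.5, 12.0 and 11.4 RPKM for 9m IHC. The 26m libraries were above the 9m libraries under both cell type labels, and no groups overlapped. The log2 fold change was 0.53 for 26m IHC against 9m IHC (SE 0.031, limma adjusted p = 3.7e-05) and 0.88 for 26m OHC against 9m OHC (SE 0.050, adjusted p = 7.1e-05), both short of the fold needed for a call, although the OHC value passed it (1.03) when scaled without mitochondrially encoded genes. Between the cell type labels *Arntl* was lower in OHC libraries, at -1.89 for 9m OHC against 9m IHC (log2, SE 0.044, adjusted p = 1.8e-06) and -1.55 for 26m OHC against 26m IHC (SE 0.037, adjusted p = 2.0e-06), both called.

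*Clock*, the partner of BMAL1, varied less. It ranged from 4.40 to 4.83 RPKM in 26m OHC, 4.34 to 4.81 RPKM in 9m OHC, 2.75 to 2.76 RPKM in 26m IHC and 5.32 to 5.72 RPKM in 9m IHC, so that the OHC groups overlapped and 26m IHC lay apart at the low end. None of its differences was called. The largest was -0.98 on the log2 scale for 26m IHC against 9m IHC (SE 0.044, adjusted p = 1.5e-05), which passed the fold threshold without replicate 1 of 9m IHC (-1.01). For 26m OHC against 9m OHC the value was -0.03 (SE 0.046, adjusted p = 0.57), and its sign turned without replicate 2 of 9m OHC (0.0059) or without mitochondrially encoded genes (0.12).

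The targets that feed back on *Arntl* and on D-box genes were *Nr1d1* (REV-ERBα, chr11:98767932-98775333, minus strand), *Nr1d2* (REV-ERBβ, chr14:18204054-18239127, minus strand) and *Dbp* (chr7:45705088-45710203, plus strand). *Nr1d1* was measured at 13.8, 13.8, 13.2 and 12.9 RPKM under the label 26m OHC and at 28.7, 29.7, 28.7 and 28.7 RPKM under 9m OHC. Under 26m IHC it stood at 32.3, 32.2, 30.9 and 31.8 RPKM, and under 9m IHC at 75.9, 77.4, 73.3 and 72.5 RPKM. Each 26m group lay below the 9m group of its label, and no groups overlapped. *Nr1d1* fell by 1.23 on the log2 scale in 26m IHC relative to 9m IHC (SE 0.034, adjusted p = 2.7e-06) and fell by 1.10 in 26m OHC relative to 9m OHC (SE 0.037, adjusted p = 1.3e-05).

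*Dbp* had the same order of ages. In *Dbp*, the 4 libraries gave 8.09, 8.22, 8.46 and 8.34 RPKM for 26m OHC, against 18.2, 17.8, 18.6 and 18.7 RPKM for 9m OHC. They gave 13.0, 12.4, 13.2 and 12.8 RPKM for 26m IHC, against 36.3, 35.8, 35.7 and 35.2 RPKM for 9m IHC. The groups did not overlap, and the 9m libraries were the higher ones under both labels. *Dbp* fell by 1.47 in 26m IHC relative to 9m IHC (SE 0.027, adjusted p = 7.8e-07) and fell by 1.14 in 26m OHC relative to 9m OHC (SE 0.034, adjusted p = 9.7e-06). Scaled without mitochondrially encoded genes, the OHC values became -0.99 for *Dbp* and -0.96 for *Nr1d1*, just short of the fold threshold.

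*Nr1d2* did not share this pattern. *Nr1d2* was measured at 16.9, 17.9, 18.4 and 18.1 RPKM under the label 26m OHC and at 5.19, 5.14, 5.59 and 5.57 RPKM under 9m OHC. Under 26m IHC it stood at 39.6, 40.0, 42.4 and 41.5 RPKM, and under 9m IHC at 51.0, 49.9, 53.2 and 53.1 RPKM. The 9m OHC libraries were the lowest by far and the 9m IHC libraries the highest, without overlap. *Nr1d2* was therefore higher in 26m OHC than in 9m OHC, by 1.71 on the log2 scale (SE 0.051, adjusted p = 9.6e-06), while the value for 26m IHC against 9m IHC was -0.34 (SE 0.040, adjusted p = 0.00062), which was not called.

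*Nr1d1* and *Dbp* each share exon bases with a gene on the opposite strand, and the libraries did not keep strand. *Nr1d1* shares 263 bases (8.55% of its exon bases) with *Thra*, a thyroid hormone receptor gene, and *Dbp* shares 539 bases (18.0%) with *Sphk2*, a sphingosine kinase gene. *Thra* averaged 5.82 RPKM in 26m OHC, 3.06 RPKM in 9m OHC, 2.92 RPKM in 26m IHC and 2.49 RPKM in 9m IHC, and *Sphk2* 7.77, 9.08, 5.73 and 8.53 RPKM in the same order. *Thra* was thus not lower in the 26m groups, with log2 fold changes of 0.22 (26m IHC against 9m IHC) and 0.91 (26m OHC against 9m OHC), and *Sphk2* had -0.57 and -0.22, none of them called. *Cry2* shares 295 bases (4.67%) with *D930015M05Rik*, which was at most 0.145 RPKM in any library, and *Arntl* 33 bases (0.439%) with *Gm45355*, which was at 0 throughout.

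The repressors comprise the *Per* and *Cry* genes. *Per1* (chr11:69095217-69109960, plus strand), a period gene that also responds quickly to light and hormones, was the scarcest. Its level was 0.433, 0.435, 0.515 and 0.399 RPKM in the 26m OHC libraries and 0.451, 0.532, 0.506 and 0.499 RPKM in the 9m OHC libraries. The 26m IHC libraries had 1.20, 1.24, 1.30 and 1.29 RPKM and the 9m IHC libraries 2.08, 2.27, 1.84 and 1.90 RPKM. The OHC groups overlapped and lay below both IHC groups. In reads, these levels rested on only 45 to 58 per library in 26m OHC and 53 to 63 in 9m OHC, against 169 to 179 in 26m IHC and 298 to 400 in 9m IHC. *Per1* was lower in OHC libraries at both ages, with -1.83 (log2) for 9m OHC against 9m IHC (SE 0.090, adjusted p = 2.2e-05) and -1.32 for 26m OHC against 26m IHC (SE 0.072, adjusted p = 3.4e-05). Between ages it was not called, with -0.64 for 26m IHC against 9m IHC (SE 0.089, adjusted p = 0.0013) and -0.13 for 26m OHC against 9m OHC (SE 0.064, adjusted p = 0.12), but under quantile normalization the OHC value was -1.46 (adjusted p = 4.8e-05), which would be a call.

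*Per2* (chr1:91415982-91459324, minus strand), the period gene most needed for daily rhythms in mice, stood out by its low level in 26m IHC. In *Per2*, the 4 libraries gave 1.95, 1.88, 2.04 and 2.21 RPKM for 26m OHC, against 3.51, 3.82, 4.05 and 3.57 RPKM for 9m OHC. They gave 0.559, 0.600, 0.501 and 0.536 RPKM for 26m IHC, against 3.10, 3.17, 3.05 and 2.96 RPKM for 9m IHC. No groups overlapped, and 68 to 90 reads per library lay behind the 26m IHC values. *Per2* fell by 2.29 in 26m IHC relative to 9m IHC (SE 0.075, adjusted p = 4.8e-06), the largest change of the 10 in that comparison. The value for 26m OHC against 9m OHC was -0.86 (SE 0.066, adjusted p = 0.00021), short of a call, and reached -1.18 under median ratio scaling and -1.49 under quantile normalization. *Per3* (chr4:151003652-151044665, minus strand), a period gene with a minor part in the mouse clock, kept within 2.74 to 3.14 RPKM in 26m OHC, 3.19 to 3.47 RPKM in 9m OHC, 2.66 to 2.86 RPKM in 26m IHC and 2.10 to 2.19 RPKM in 9m IHC. The 26m groups overlapped, and *Per3* was called in none of the comparisons.

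*Cry1* (chr10:85131700-85185064, minus strand), the cryptochrome with the strongest repressor activity, was near 1 RPKM in 9m OHC only. *Cry1* was measured at 5.02, 4.67, 5.63 and 5.14 RPKM under the label 26m OHC and at 0.846, 0.997, 1.16 and 0.916 RPKM under 9m OHC. Under 26m IHC it stood at 5.58, 5.38, 5.43 and 5.76 RPKM, and under 9m IHC at 7.82, 8.17, 8.16 and 8.16 RPKM. The 26m groups overlapped each other, and the 9m OHC libraries, with 59 to 76 reads each, lay below all others. *Cry1* was higher in 26m OHC than in 9m OHC by 2.27 on the log2 scale (SE 0.085, adjusted p = 1.8e-05), the largest change of the 10 there. In 26m IHC against 9m IHC the value was -0.54 (SE 0.035, adjusted p = 6.0e-05), which was not called.

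*Cry2* (chr2:92403646-92434043, minus strand), the other cryptochrome, was set apart by its high level in 9m IHC. In *Cry2*, the 4 libraries gave 10.4, 10.1, 9.70 and 9.83 RPKM for 26m OHC, against 11.4, 11.2, 11.0 and 10.9 RPKM for 9m OHC. They gave 14.7, 14.4, 13.9 and 13.7 RPKM for 26m IHC, against 57.1, 56.3, 52.9 and 53.4 RPKM for 9m IHC. The other 3 groups lay between 9.70 and 14.7 RPKM without overlap. *Cry2* fell by 1.95 in 26m IHC relative to 9m IHC (SE 0.045, adjusted p = 1.5e-06), whereas the value for 26m OHC against 9m OHC was -0.16 (SE 0.037, adjusted p = 0.014), not called.

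Counted by comparison, 4 of the 10 clock genes (*Per2*, *Cry2*, *Dbp* and *Nr1d1*) were called in 26m IHC against 9m IHC, all lower. Among the 15711 genes tested there, 32.7% were called, 14.1% higher and 18.6% lower. In 26m OHC against 9m OHC, 4 were called, *Cry1* and *Nr1d2* higher and *Dbp* and *Nr1d1* lower, against 49.6% of 14843 genes, 35.6% higher and 14% lower. Counted in either direction these shares were near those of all genes tested. By direction they were not all so, since no clock gene was higher and 4 were lower in 26m IHC against 9m IHC, and 2 were higher in 26m OHC against 9m OHC, and with 10 genes nothing particular to the clock genes is read from them. The median log2 fold change of the clock genes was -0.81 in 26m IHC against 9m IHC, where that of all genes was -0.09, and -0.14 in 26m OHC against 9m OHC, where that of all genes was 0.45.

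Between the cell type labels, 6 of the 10 were called in 9m OHC against 9m IHC, all lower, against 65.8% of 15335 genes (17.3% higher and 48.5% lower). *Nr1d2* had the largest difference, -3.25 (SE 0.050, adjusted p = 7.5e-07), followed by *Cry1* with -2.92 (SE 0.066, adjusted p = 1.7e-06), *Cry2* with -2.29 (SE 0.041, adjusted p = 9.6e-07), *Arntl*, *Per1* and *Nr1d1*. The *Nr1d1* value of -1.37 (SE 0.033, adjusted p = 2.0e-06) became -0.66 with median ratio scaling, which ended its call. In this comparison the median of all genes was itself -0.93, against -1.60 for the clock genes, and it moved to -0.22 under median ratio scaling and to -0.09 under quantile normalization. Relative to that shift *Dbp*, at -0.96, lay close to the median of all genes, and *Per2* (0.27) and *Per3* (0.59) lay above it. With quantile normalization *Per2* (1.05) and *Per3* (1.34) passed the fold threshold as higher, *Per3* also with median ratio scaling (1.27).

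In 26m OHC against 26m IHC, 5 of the 10 were called, *Per2* higher and *Arntl*, *Per1*, *Nr1d1* and *Nr1d2* lower, against 63.5% of 16043 genes, 29% higher and 34.4% lower. *Per2* differed by 1.71 (SE 0.088, adjusted p = 2.6e-05), *Nr1d1* by -1.24 (SE 0.039, adjusted p = 4.5e-06) and *Nr1d2* by -1.19 (SE 0.041, adjusted p = 6.0e-06). A pseudocount of 1 RPKM took *Per1* (-0.64) and *Per2* (0.96) below the fold threshold, and quantile normalization did so for *Nr1d1* (-0.86) and *Nr1d2* (-0.84). *Cry1* (-0.11, SE 0.062, adjusted p = 0.13) and *Per3* (0.07, SE 0.050, adjusted p = 0.22) were the closest to 0.

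**Figure D2:**
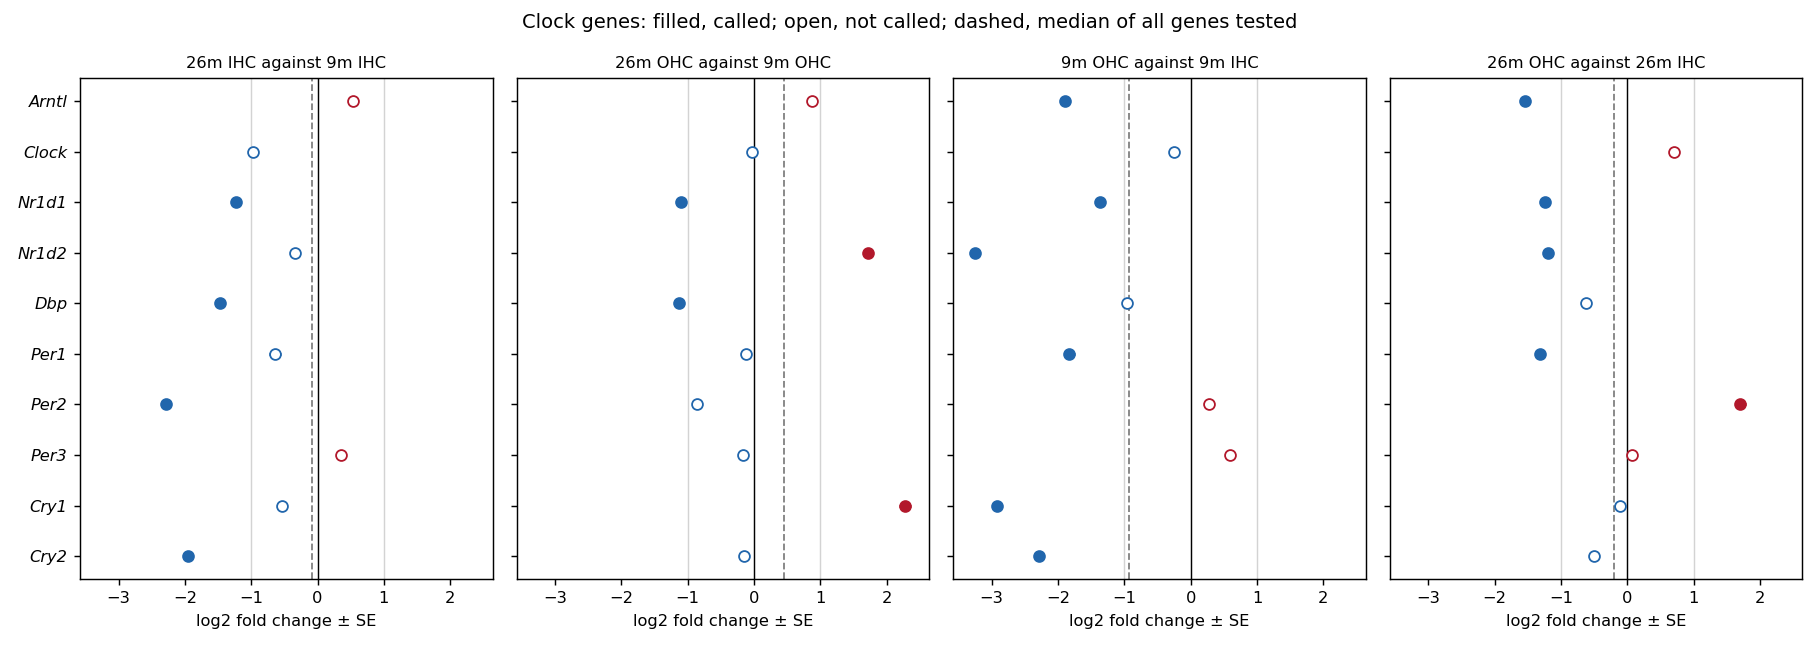
Log2 fold change (x axis, on the log2(RPKM + 0.1) scale) of each clock gene in the 4 comparisons, with standard errors that are mostly smaller than the symbols. Filled symbols were called, open ones were not, red is higher and blue lower in the group named first, and the dashed line is the median of all genes tested. *Nr1d1* and *Dbp* were filled and lower in both comparisons between ages, where *Arntl* lay to the right of 0.

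The difference between ages differed between the cell type labels for 4 of the 10 genes by an interaction term fitted over all 4 groups, with *Cry1*, *Nr1d2*, *Cry2* and *Per2* more positive in OHC libraries. Of all 17056 genes tested, 56.5% were called, 38.4% in that direction and 18.1% in the other, and the median over all genes was 0.50. The interaction was 2.81 for *Cry1* (SE 0.097, adjusted p = 1.9e-07) and 2.05 for *Nr1d2* (SE 0.071, adjusted p = 1.9e-07). It was 1.79 for *Cry2* (SE 0.063, adjusted p = 2.1e-07) and 1.43 for *Per2* (SE 0.10, adjusted p = 8.3e-06), and the *Per2* call was lost with a pseudocount of 1 RPKM (0.74), median ratio scaling (0.82) and quantile normalization (0.27). For *Arntl* (0.35), *Dbp* (0.34) and *Nr1d1* (0.13) it was not called, and each of these signs turned with median ratio scaling. *Per3* had the opposite sign (-0.52, SE 0.062, adjusted p = 0.00015), short of a call, and passed the fold threshold under median ratio scaling (-1.11) and quantile normalization (-1.33).

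Differences between clock genes within a library were described for 3 couples of genes. A common factor per library leaves the ratio of RPKM values unchanged, whereas the pseudocount and quantile normalization can move these differences. *Arntl* minus *Nr1d1*, as log2(RPKM + 0.1), was -1.22 ± 0.094 in 26m OHC, -3.20 ± 0.048 in 9m OHC, -0.91 ± 0.063 in 26m IHC and -2.67 ± 0.055 in 9m IHC (mean ± SD, n = 2 averaged samples). The 26m libraries, from -1.38 to -0.85, lay above the 9m libraries, from -3.32 to -2.60, under both cell type labels. The 26m mean exceeded the 9m mean by 1.98 in OHC and by 1.76 in IHC libraries.

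*Arntl* minus *Dbp* behaved alike. It was -0.53 ± 0.0072 in 26m OHC, -2.54 ± 0.10 in 9m OHC, 0.40 ± 0.013 in 26m IHC and -1.61 ± 0.021 in 9m IHC, so that only the 26m IHC libraries held more *Arntl* than *Dbp*. The 26m mean exceeded the 9m mean by 2.0 in both OHC and IHC libraries. Between cell type labels it was -0.93 at 9 months and -0.92 at 26 months, OHC minus IHC. If the labels 26m IHC and 9m OHC were exchanged, the differences of -0.93 and -0.92 would be those between ages, and those of 2.0 between cell types.

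*Per1* minus *Per2* differed most between the cell type labels, and also between the ages. It was -1.96 ± 0.064 in 26m OHC, -2.68 ± 0.017 in 9m OHC, 1.07 ± 0.15 in 26m IHC and -0.58 ± 0.11 in 9m IHC. All OHC libraries lay between -2.78 and -1.80 and all IHC libraries between -0.70 and 1.22, and *Per1* exceeded *Per2* in 26m IHC alone. The 26m OHC mean exceeded the 9m OHC mean by 0.72, a step not seen under quantile normalization, where the change between these groups was -1.46 for *Per1* and -1.49 for *Per2*. Within a cell type label, 2 averaged samples against 2 allow no exact permutation p below 0.333 (two-sided), and no test was run on these differences.

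**Figure D3:**
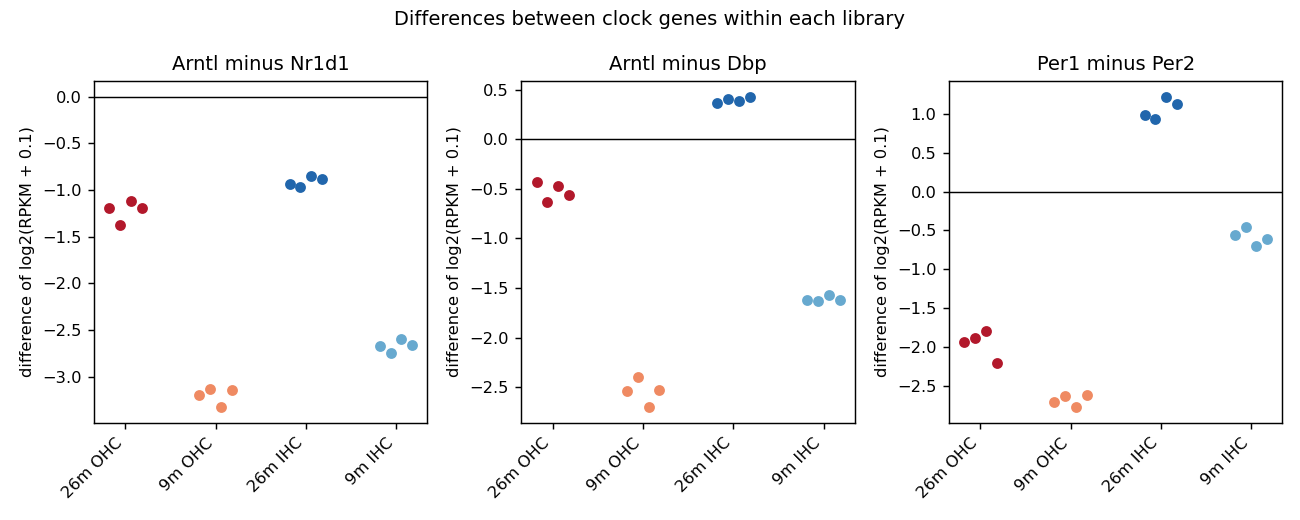
Difference of log2(RPKM + 0.1) between 2 clock genes in each library (points), for *Arntl* minus *Nr1d1*, *Arntl* minus *Dbp* and *Per1* minus *Per2*, by labelled group, with a line at 0 for equal levels. The 26m points lie above the 9m points of the same cell type label in each panel, and the OHC points lie below all IHC points for *Per1* minus *Per2*.

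Among the 10 genes, *Nr1d1* and *Dbp* had the most similar profile over the 4 group means, with a root mean square difference of 0.268 on the log2 scale after centring, followed by *Cry1* and *Nr1d2* with 0.409. Of 13308 other genes, those most like *Nr1d2*, the gene with the widest range, were *Golph3l* (0.057), *AU040320* (0.057) and *Snx14* (0.080). *Aars* (0.091), *Kmt5b* (0.096) and *Tbc1d9b* (0.11) were most like *Cry1*, and *Klhl29* (0.080), *Ppdpf* (0.12) and *Rab4a* (0.13) most like *Per2*. These likenesses rest on 4 group means only and describe the profile.

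The wider clock was followed in a list of 22 genes of other loops, kinases and degradation factors, of which 1 was called higher and 7 lower of 22 tested in 26m IHC against 9m IHC (14.1% and 18.6% of all genes), and 8 higher and 2 lower in 26m OHC against 9m OHC (35.6% and 14% of all genes). In 9m OHC against 9m IHC 4 were called higher and 10 lower of 21 (17.3% and 48.5% of all genes), and in 26m OHC against 26m IHC 10 higher and 3 lower of 22 (29% and 34.4% of all genes). The median of the list was -0.62, 0.19, -0.99 and 0.10 in these comparisons, in that order, and that of all genes -0.09, 0.45, -0.93 and -0.20. *Rorb*, a receptor that activates *Arntl* through the element at which REV-ERBs repress it, averaged 15.4 RPKM in 26m OHC, 48.2 RPKM in 9m OHC, 32.7 RPKM in 26m IHC and 95.5 RPKM in 9m IHC. It fell by 1.54 in 26m IHC relative to 9m IHC (SE 0.023, adjusted p = 4.5e-07) and fell by 1.64 in 26m OHC relative to 9m OHC (SE 0.026, adjusted p = 2.5e-06).

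*Nfil3*, a repressor of D-box genes, averaged 2.86 RPKM in 26m OHC, 0.0246 RPKM in 9m OHC, 0.0817 RPKM in 26m IHC and 1.01 RPKM in 9m IHC. It was called higher in 26m OHC than in 9m OHC (4.58, SE 0.12, adjusted p = 7.2e-06) and lower in 26m IHC than in 9m IHC (-2.61, SE 0.12, adjusted p = 1.8e-05), the second of which fell short of a call at a pseudocount of 1 RPKM (-0.89). *Bhlhe41* (DEC2), which competes with CLOCK and BMAL1 at E-boxes, averaged 33.7, 14.3, 2.30 and 0.757 RPKM in the same order of groups, and was called higher at 26 months under both labels, by 1.23 in OHC and 1.49 in IHC libraries, the OHC call being lost under median ratio scaling (0.89) and the IHC call at a pseudocount of 1 RPKM (0.91). *Gsk3b*, a kinase that acts on several clock proteins, averaged 92.1 and 105 RPKM in 26m OHC and 9m OHC, against 5.58 and 9.05 RPKM in 26m IHC and 9m IHC. Its differences of 3.52 (9m OHC against 9m IHC) and 4.02 (26m OHC against 26m IHC) were called. Those between the labelled ages, -0.19 in OHC and -0.69 in IHC libraries, were not. Under the label swap described with the marker genes, 3.52 and 4.02 would be the differences between ages, both higher at 26 months. The values of -0.19 and -0.69 would then be those between cell types. Which reading holds was not tested.

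**Figure D4:**
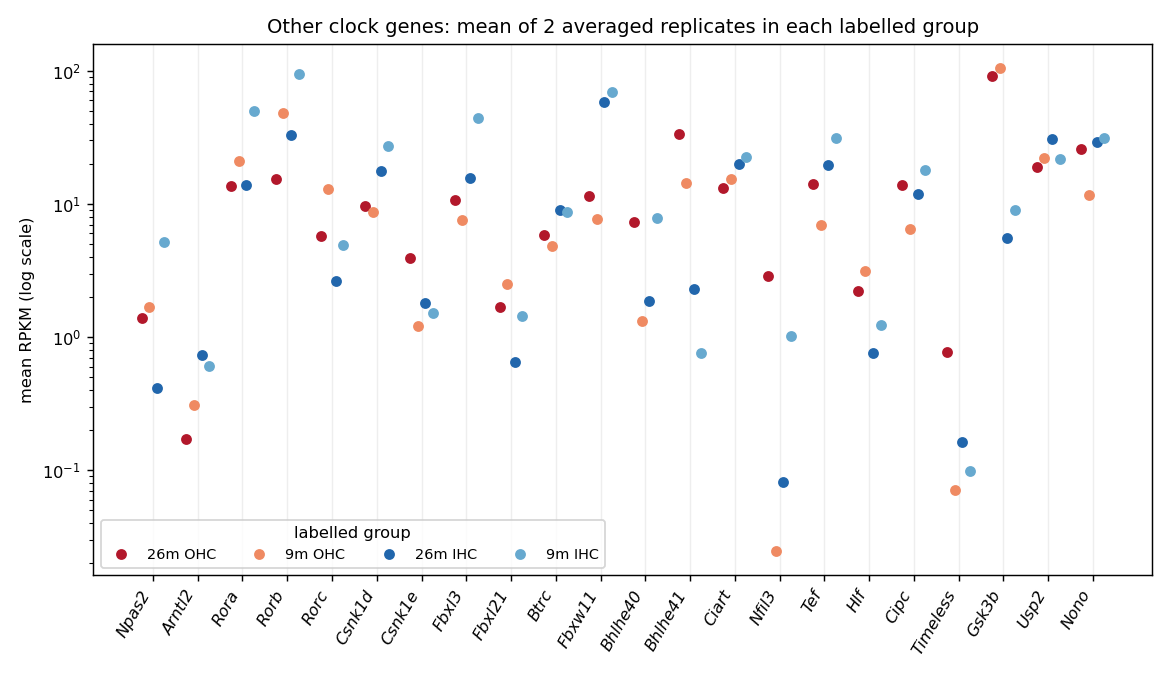
Mean RPKM (log axis) of the 22 other clock genes in the 4 labelled groups, each point the mean of 2 averaged samples. *Gsk3b* and *Bhlhe41* lie higher in both OHC groups than in both IHC groups, and *Nfil3* spans from 0.0246 RPKM in 9m OHC to 2.86 RPKM in 26m OHC.

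Genes that respond within minutes to handling and stress were read beside the clock genes, since *Per1* is induced by the same signals. Of 22 acutely induced genes, 16 could be tested in 26m IHC against 9m IHC, with 1 called higher and 11 lower (14.1% and 18.6% of all genes), and 17 in 26m OHC against 9m OHC, with 7 higher and 4 lower (35.6% and 14% of all genes). In 9m OHC against 9m IHC 2 of 16 were higher and 11 lower (17.3% and 48.5% of all genes), and in 26m OHC against 26m IHC 6 of 18 were higher and 6 lower (29% and 34.4% of all genes). *Nr4a1* averaged 3.80 RPKM in 26m OHC, was listed at 0 in all 9m OHC libraries, and averaged 1.01 RPKM in 26m IHC and 6.41 RPKM in 9m IHC. *Atf3* averaged 8.83 RPKM in 26m OHC, was listed at 0 in 9m OHC, and averaged 0.385 and 0.151 RPKM in 26m IHC and 9m IHC.

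*Dusp1*, a phosphatase gene of this list, averaged 7.89 RPKM in 26m OHC, 1.45 RPKM in 9m OHC, 32.3 RPKM in 26m IHC and 20.4 RPKM in 9m IHC, the same order of groups as *Arntl*. *Btg2*, an antiproliferative gene, averaged 19.5, 45.1, 22.0 and 47.1 RPKM in that order of groups. It fell by 1.20 in 26m OHC relative to 9m OHC (SE 0.024, adjusted p = 3.7e-06) and fell by 1.09 in 26m IHC relative to 9m IHC (SE 0.025, adjusted p = 1.5e-06), the IHC value being -0.99 and not called under median ratio scaling. The summed level of the 22 genes was 67.7 to 68.8 RPKM in 26m OHC, 68.2 to 71.5 RPKM in 9m OHC, 86.4 to 89.7 RPKM in 26m IHC and 163 to 165 RPKM in 9m IHC, and its part in the *Per1* levels was not tested.

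Glucocorticoid-induced genes, a list of 8 that follows the daily and stress-related hormone level, were called higher for 2 and lower for none in 26m OHC against 9m OHC (35.6% and 14% of all genes), and higher for none and lower for 4 of 7 in 26m IHC against 9m IHC (14.1% and 18.6% of all genes). In 9m OHC against 9m IHC 1 was higher and 4 lower of 7 (17.3% and 48.5% of all genes), and in 26m OHC against 26m IHC 5 were higher and none lower of 8 (29% and 34.4% of all genes). *Tsc22d3* (GILZ), a direct target of the glucocorticoid receptor, averaged 29.5 RPKM in 26m OHC, 10.2 RPKM in 9m OHC, 6.74 RPKM in 26m IHC and 41.5 RPKM in 9m IHC. It was higher in 26m OHC than in 9m OHC by 1.53 (SE 0.033, adjusted p = 4.3e-06) and lower in 26m IHC than in 9m IHC, at -2.61 (SE 0.031, adjusted p = 2.4e-07). *Sgk1*, a kinase gene, averaged 36.3, 20.1, 16.5 and 60.4 RPKM in the same order of groups, and *Zbtb16* averaged 2.22 RPKM in 26m OHC against at most 0.0467 RPKM in the means of the other groups.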

How the data were processed

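Gene expression was measured by RNA-seq in 16 libraries of hand-picked hair cells (SMARTer cDNA, Nextera libraries, no strand information). The deposited values are RPKM per gene, which the authors made in CLC Genomics Workbench on the GRCm38 (mm10) mouse genome. Their replicates were not pooled, and aligner settings and the gene annotation release are not given in the sources used here. Positions and exon overlaps were taken from GENCODE M21. Reads were recovered from the RPKM steps. All libraries gave whole reads, with a tolerance of 0.001, in 15410 of the 20986 genes detected (73.4%). Reads per gene are approximate for *Arntl* and *Nr1d2*, and no count test was run.

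Groups came from the labels. Libraries that differed by little more than sampling noise were averaged, leaving 2 samples per group. Genes whose mean reached 0.1 RPKM in a group compared were fitted by limma 3.58.1 (R 4.3.3, trend, two-sided, Benjamini-Hochberg over all genes tested) on log2(RPKM + 0.1), each comparison on its own groups and the interaction on all 4. The fit was tested on simulated data. The simulated replicates were independent, so the test does not cover deviations that same-numbered averages share between groups. Calls needed an adjusted p of 0.1 and a log2 fold change of 1. Alternatives were pseudocounts of 0.01 and 1 RPKM, other filters and thresholds, median ratio scaling, quantile normalization, scaling without mitochondrially encoded genes, a fit of all groups, a replicate block, and leaving out each averaged replicate.

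The clock genes, lists and markers were chosen with earlier results of these data known. All 10 clock genes are named. Of each other list, the 2 most abundant genes and the 2 with the largest fold change among those at 1 RPKM or more in a group are named, at most 4.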

Additional observations from a re-analysis of the deposited data

Results flagged for a closer look

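For 4 clock genes the difference between ages itself differed between the libraries labelled OHC and those labelled IHC, by the limma interaction term over all 4 groups (56.5% of 17056 genes passed the same test). The difference, 26m minus 9m in OHC minus 26m minus 9m in IHC on the log2 scale, was 2.81 for *Cry1*, 2.05 for *Nr1d2*, 1.79 for *Cry2* and 1.43 for *Per2*. The *Per2* call was lost at a pseudocount of 1 RPKM (0.74), under median ratio scaling (0.82) and under quantile normalization (0.27). For *Cry1* and *Nr1d2* the called difference lay in libraries labelled OHC and for *Cry2* and *Per2* in those labelled IHC. This split holds for the labels only. Under the label swap described with the marker genes, the IHC difference would be called for *Cry1* (-2.92), *Nr1d2* (-3.25) and *Cry2* (-2.29). It would not be for *Per2* (0.27). The OHC difference would be called for *Nr1d2* (-1.19) and *Per2* (1.71), but not for *Cry1* (-0.11) or *Cry2* (-0.50). The macrophage, red cell and neuronal marker levels also differed between the labelled groups, and their part in the interaction was not tested.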

How the results depend on the processing

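Of 879 values for the clock genes under alternatives, 820 kept their direction and side of the threshold, 36 gained a call, 10 lost it and 13 changed sign, all 13 of genes that were not called. Other filters, the other adjusted p, the replicate block and the fit of all groups left the fold changes themselves unchanged. These settings could change a call only through the p-value, and they add to the 820. Without a fold threshold the number of clock genes called became 10 in 26m IHC against 9m IHC, 8 in 26m OHC against 9m OHC, 10 in 9m OHC against 9m IHC, 8 in 26m OHC against 26m IHC and 10 for the interaction, where 86.6%, 92.3%, 95.5%, 94.9% and 90.4% of all genes were called in that order. In 26m OHC against 26m IHC it was 3 with a pseudocount of 1 RPKM and 3 with quantile normalization. Leaving out each averaged replicate gave 4 to 5 in 26m IHC against 9m IHC, 4 in 26m OHC against 9m OHC, 6 in 9m OHC against 9m IHC, 5 in 26m OHC against 26m IHC and 4 for the interaction. The study's methods describe both cell types as collected from each mouse, so IHC and OHC samples of an age may share mice, but no source ties the replicate numbers to mice. The deviations of the same-numbered averages correlated at 0.316 to 0.463 between groups (2 numbers only). The highest value was between 26m IHC and 9m IHC, which are labelled with different ages. Between the cell types of the same labelled age it was 0.386 at 26 months and 0.326 at 9 months. A replicate block kept 50 of 50 values of the clock genes on their side, with 4, 4, 6, 5 and 4 calls in the order of comparisons above. In these balanced groups a block leaves the fold changes as they are, so only the p-values could move.

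Signs that changed were, for *Clock*, 0.12 without mitochondrially encoded genes and 0.0059 without replicate 2 of 9m OHC (-0.064 without replicate 1) (26m OHC against 9m OHC), and 0.45 under median ratio scaling and 0.58 under quantile normalization (9m OHC against 9m IHC). In 26m OHC against 26m IHC, quantile normalization gave -0.0057 for *Per3*, 0.069 for *Cry1* and 0.20 for *Btg2*, and scaling without mitochondrially encoded genes 0.066 for *Cry1* and 0.0092 for *Btg2*. In 9m OHC against 9m IHC *Btg2* had 0.65 under median ratio scaling and 0.38 under quantile normalization. For the interaction, median ratio scaling gave -0.25 for *Arntl*, -0.034 for *Per1*, -0.48 for *Nr1d1*, -0.27 for *Dbp*, -0.11 for *Gsk3b* and -0.26 for *Sphk2*. Quantile normalization gave -0.24 for *Arntl*, -0.91 for *Per1*, 0.063 for *Rorb* and -0.16 for *Sphk2*, scaling without mitochondrially encoded genes 0.074 for *Rorb* and 0.057 for *Btg2*, and a pseudocount of 1 RPKM 0.27 for *Bhlhe41*.

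With a pseudocount of 1 RPKM, *Arntl* minus *Nr1d1* was -1.10 in 26m OHC, -2.88 in 9m OHC and -2.58 in 9m IHC, and *Arntl* minus *Dbp* was -0.47 in 26m OHC, -2.25 in 9m OHC, 0.37 in 26m IHC and -1.54 in 9m IHC. *Per1* minus *Per2* was then -1.06, -1.66, 0.55 and -0.43 in 26m OHC, 9m OHC, 26m IHC and 9m IHC, and with a pseudocount of 0.01 RPKM -2.16 in 26m OHC and -2.89 in 9m OHC.

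Over all genes, calls in 26m IHC against 9m IHC were 5138, with 2286 at a pseudocount of 1 RPKM, 3096 at a filter of 1 RPKM and 13601 without a fold threshold. In 26m OHC against 9m OHC they were 7367, with 4197 and 13697 at the first and last of these settings. At a pseudocount of 1 RPKM they were 6302 (10085 before) in 9m OHC against 9m IHC and 6410 (10185 before) in 26m OHC against 26m IHC. For the interaction they were 9642, with 5761 at a pseudocount of 1 RPKM and 15422 without a fold threshold. Of the calls, 71.8% were higher in 26m OHC against 9m OHC, but 61.0% under median ratio scaling and 49.6% under quantile normalization. In 9m OHC against 9m IHC the share was 26.3%, 43.7% and 48.9%, and for the interaction 68.0%, 52.2% and 48.7%, under the same settings. The causes were not tested. Depth limits *Per1*, *Per2* in 26m IHC and *Cry1* in 9m OHC, with at most 90 reads per library (*Per1* in OHC libraries).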
